A study of Rattus norvegicus with 5 samples.

Results

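Oxidative phosphorylation genes were followed in the fat of the mesentery around the pancreas of rats kept on a cafeteria or a standard diet. They were chosen by name alone: every array probe set, a group of short probes read together for 1 transcript, that is annotated with exactly 1 gene symbol beginning with Nduf, Uqcr, Cox4 to Cox8 or Atp5, or equal to Sdha, Sdhb, Sdhc or Sdhd. This gave 96 probe sets of 86 genes, of 14217 genes with such a probe set, and where a gene had several, the brightest on average over the 5 arrays stood for it. By complex there were 36 genes of complex I subunits, 6 Ndufaf assembly factors of complex I, 4 genes of complex II, 7 of complex III, 17 of complex IV and 16 of complex V. A further 7 probe sets that name a member gene together with a near copy were left out, so that Atp5mc1, Atp5mc2, Cox7a2, Uqcrb, Ndufs5 and Ndufa10 were not measured here and Cox5a was represented by a dim probe set.

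The arrays came from adult male Wistar rats, 7 weeks old at the start and housed singly. The cafeteria samples (n = 2) were from rats given a high-fat diet with 66% of calories as fat for 30 days, a regimen the labels call an obese group, and the standard samples (n = 3) from rats given chow with 8% of calories as fat over the same 30 days. Each array of the Affymetrix rat genome type carried total RNA of 1 sample of whole tissue, so fat cells, vessels and immune cells were measured together. All levels are log2 values, on which a difference of 1 is a doubling, and a level of 1 probe set is not comparable with that of another.

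The respiratory chain sits in the inner mitochondrial membrane. Complex I takes electrons from NADH and complex II from succinate, coenzyme Q carries them to complex III, cytochrome c carries them on to complex IV, and complex IV passes them to oxygen. The proton gradient that complexes I, III and IV build drives complex V, the ATP synthase, while assembly factors such as the Ndufaf proteins help build complex I without being part of the finished enzyme. White fat cells use this machinery to supply ATP and precursors for triglyceride storage, and brown-type fat cells use it to make heat.

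Since the members are nuclear genes of 1 pathway, their promoters were searched for the motifs of factors known to act on respiratory genes. RefSeq windows of the GRCr8 assembly, from 250 bases before to 50 bases after the annotated start, were found for 78 of the 86 genes. The letters GCATGCGC (NRF1) were in 9 of these windows, or 11.5%, against 2.66% of all 27457 gene windows and 4.88% of the 9547 genes measured on the array that have one. CCGGAAG (ETS family) was in 28.2%, against 9.22% and 17.2%. AAGGTCA, a nuclear receptor motif that estrogen-related receptors can bind, was in 14.1%, against 4.37% and 2.83%, and GATGGCG (YY1) was in 17.9%, against 4.26% and 7.29%. GGGCGG (SP1) was in 43.6%, against 34.9% of all windows and 62% of those of measured genes. Both strands were searched, and a match describes letters and not a bound site.

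From each complex, 1 window is shown, to let these shares be seen in sequence: one with the most kinds of motif and, where several had as many, as in complexes III, IV and V, that of the gene with the smallest p in the diet comparison. Capitals mark the motifs on either strand, and the annotated start follows the 250th base. The Ndufa6 window lies at chr7:115750268-115750567 (minus strand), Sdhd at chr8:59850592-59850891 (minus), Uqcrq at chr10:38089929-38090228 (minus), Cox8a at chr1:213833574-213833873 (minus) and Atp5me at chr14:1464610-1464909 (plus).
Ndufa6: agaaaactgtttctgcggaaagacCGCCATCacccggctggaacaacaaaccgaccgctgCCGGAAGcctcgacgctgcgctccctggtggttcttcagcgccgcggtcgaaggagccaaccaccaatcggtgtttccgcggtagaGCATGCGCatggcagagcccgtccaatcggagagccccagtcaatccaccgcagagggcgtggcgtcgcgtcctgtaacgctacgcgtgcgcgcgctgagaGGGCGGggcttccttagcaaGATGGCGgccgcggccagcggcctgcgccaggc
Sdhd: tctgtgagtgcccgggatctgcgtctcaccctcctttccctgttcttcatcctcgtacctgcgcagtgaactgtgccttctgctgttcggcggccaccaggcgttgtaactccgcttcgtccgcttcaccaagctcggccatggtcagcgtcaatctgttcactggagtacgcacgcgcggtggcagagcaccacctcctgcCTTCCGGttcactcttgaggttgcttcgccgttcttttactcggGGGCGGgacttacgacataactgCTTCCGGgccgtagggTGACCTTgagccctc
Uqcrq: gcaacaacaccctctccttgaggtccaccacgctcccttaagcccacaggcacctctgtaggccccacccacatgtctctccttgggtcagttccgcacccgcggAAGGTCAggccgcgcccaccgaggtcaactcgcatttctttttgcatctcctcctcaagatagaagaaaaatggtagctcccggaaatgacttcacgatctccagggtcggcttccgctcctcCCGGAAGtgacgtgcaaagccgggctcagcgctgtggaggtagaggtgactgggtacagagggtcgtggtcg
Cox8a: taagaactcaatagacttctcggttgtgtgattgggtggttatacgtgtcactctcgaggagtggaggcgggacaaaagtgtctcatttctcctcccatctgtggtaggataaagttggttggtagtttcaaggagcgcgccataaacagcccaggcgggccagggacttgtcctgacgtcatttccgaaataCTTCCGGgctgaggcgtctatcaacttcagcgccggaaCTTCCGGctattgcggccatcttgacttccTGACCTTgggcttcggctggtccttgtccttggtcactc
Atp5me: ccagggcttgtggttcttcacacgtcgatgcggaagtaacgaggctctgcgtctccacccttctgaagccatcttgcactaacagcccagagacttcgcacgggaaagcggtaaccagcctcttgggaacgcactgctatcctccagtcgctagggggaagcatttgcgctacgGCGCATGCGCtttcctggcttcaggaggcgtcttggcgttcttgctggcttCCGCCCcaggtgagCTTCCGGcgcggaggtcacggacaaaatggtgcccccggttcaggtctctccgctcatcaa
The Ndufa6 window held an NRF1 match 104 bases before the start, an ETS match at 190 bases before it, and a YY1 match on each side of the start. In Sdhd the ETS letters stood 48 bases before and 19 bases after the start, with the nuclear receptor motif 35 bases after it. The Uqcrq window had the ETS letters 22 bases before the start. Cox8a held the ETS letters at 57 and 19 bases before the start, and the nuclear receptor motif 11 bases after it. In Atp5me, a pair of NRF1 matches overlapped on opposite strands in a single palindromic run, the only overlap among the motifs in these windows. Members with and without a motif differed little in their diet difference, with medians of 0.12 and 0.13 for NRF1, 0.12 and 0.13 for the ETS motif, and 0.15 and 0.12 for the nuclear receptor motif.

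The respiratory genes were mostly slightly higher in cafeteria fat, in every complex, by a small amount. Of the 86 members, 78 had a higher mean and 8 a lower mean in cafeteria samples, and the median difference was 0.12, a 1.09-fold higher level. Over all 11509 genes tested the median was -0.0027 and 49.2% were higher. Both cafeteria arrays lay above all standard arrays for 35 members, or 40.7%, against 13.3% of the 21729 probe sets tested, and below them for 0 members, against 14.1%. Members are bright, with 60 of 86 above a mean of 10, and among probe sets that bright the share with both cafeteria arrays on top was 24.3%, against 28 of these 60 members, or 46.7%.

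No single member passed the test. With limma, 84 members passed the filter on dim probe sets (all but Cox7b2 and Cox8b), and 0 had an adjusted p under 0.05, as did 0% of all probe sets. The smallest adjusted p among members was 0.281 (limma). At an unadjusted p under 0.05 there were 14 members, or 16.7% of those tested, all of them higher in cafeteria samples, against 6.05% of all probe sets higher and 6.62% lower. Bright genes reach this threshold more often. Of the 1002 other genes with a mean above 10, 130 were higher and 64 lower, against 13 higher and 0 lower of the 60 members that bright. These 14 were 9 complex I subunits, Uqcr11, Cox6a1, Cox6c, Cox8a and Atp5mf. With 2 against 3 arrays an exact permutation test cannot go below p = 0.1, two-sided. That floor was reached by 24 members. The same share over all probe sets was not worked out, so the count says nothing particular about the members. In bulk tissue, fewer cells of a type and less RNA per cell cannot be told apart.

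**Figure D1:**
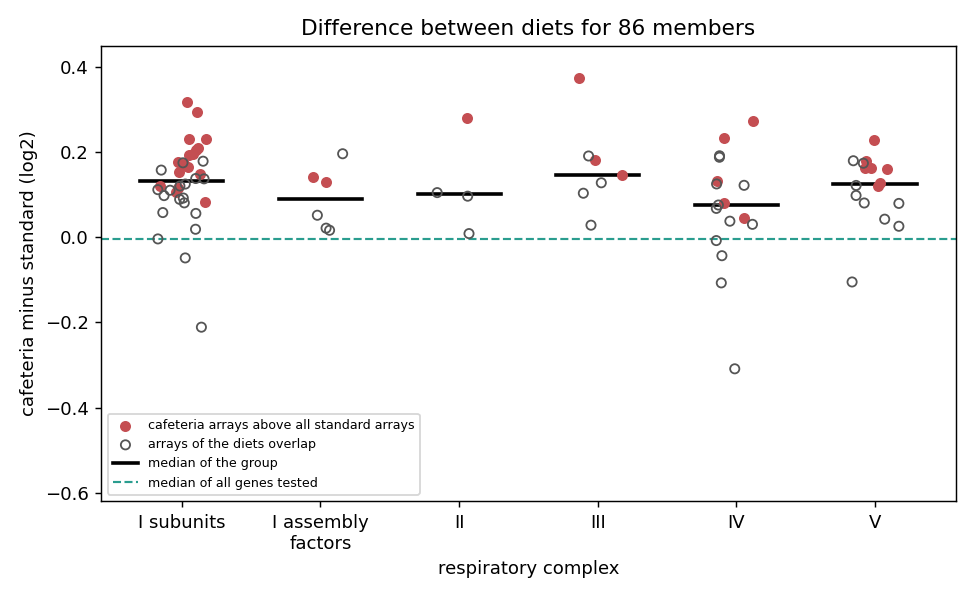
Difference between diets (cafeteria minus standard, log2, vertical axis) for each of the 86 members, grouped by complex along the horizontal axis. Filled points are the 35 members whose cafeteria arrays both lay above all standard arrays, open points overlap, black lines are group medians, and the dashed line is the median of all genes tested, -0.0027; most points of every group lie above it.

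The arrays of a diet were not alike. The median deviation of the members from their own mean over 5 arrays was 0.02 and 0.13 on cafeteria replicates 1 and 2, against -0.09, -0.02 and -0.02 on standard replicates 1, 2 and 3. Cafeteria replicate 2 gave the highest value of the 5 arrays for 64 members, or 74.4%, against 24.5% of all genes tested. Standard replicate 1 gave the lowest for 52 members, or 60.5%, against 21.4%. The diets did not overlap on this score, but cafeteria replicate 1 lay nearer to standard replicates 2 and 3 than to cafeteria replicate 2. Without cafeteria replicate 1 the median difference was 0.17, with 78 members higher. At an unadjusted p under 0.05 there were then 30 members higher and 1 lower; the higher ones were 35.7% of those tested, against 9.25% of all probe sets. Without cafeteria replicate 2 the median was 0.07, with 65 members higher. At that threshold there were then 6 members higher and 3 lower, and the share higher was 7.14%, against 7.03% of all probe sets, so no excess of members remained. When a standard array was left out the members at that threshold were all higher, at 7 (8.33%, against 4.45% of all probe sets) without standard replicate 1, 6 (7.14%, against 4.55%) without standard replicate 2 and 8 (9.52%, against 4.74%) without standard replicate 3. With 1 cafeteria array, the share above all standard arrays was 83.7% of members without cafeteria replicate 1, against 29.3% of all probe sets, and 46.5% without cafeteria replicate 2, against 26.6%. Where 1 cafeteria array remains, it is assumed to vary like the standard arrays.

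**Figure D2:**
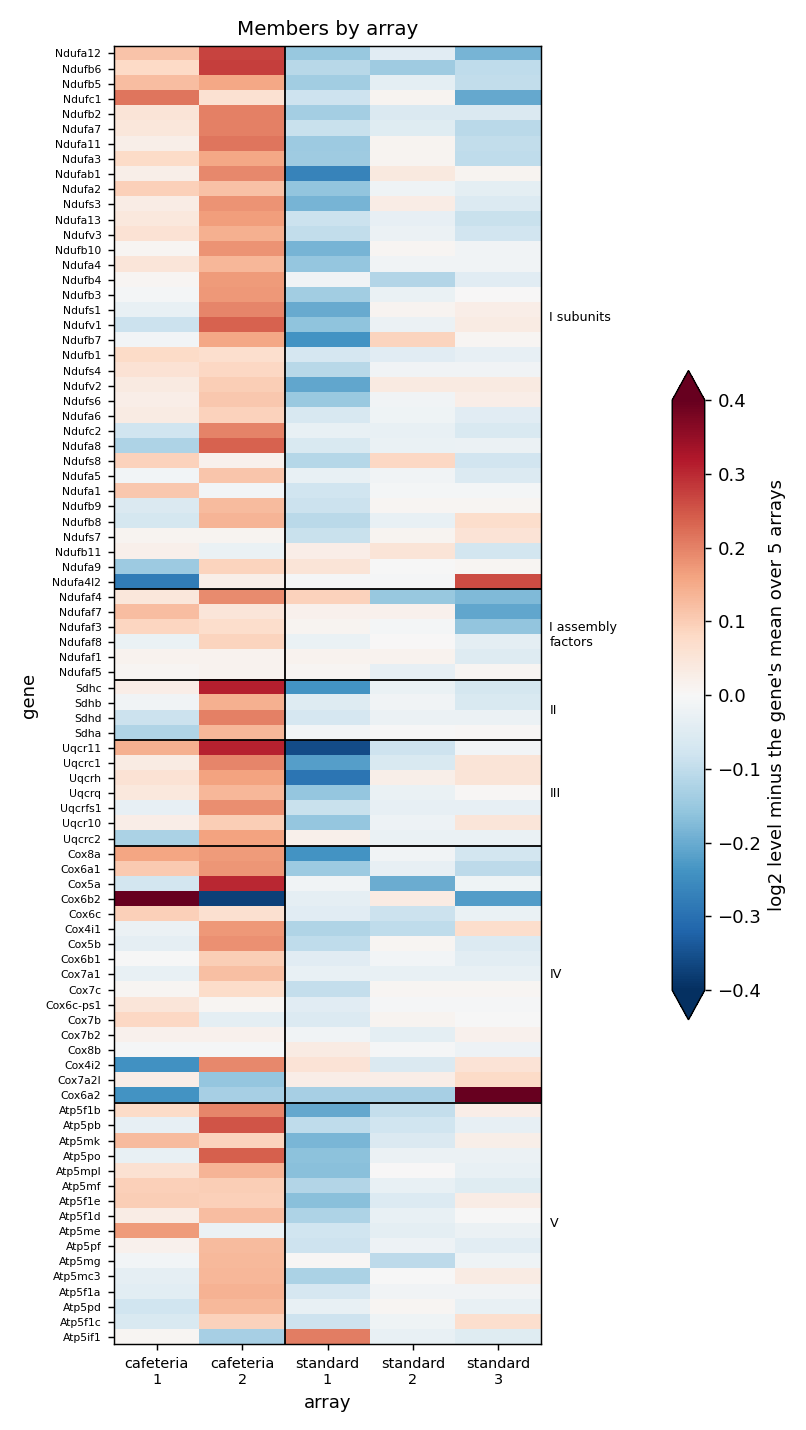
Level of each member on each array, as log2 level minus the gene's mean over the 5 arrays (colour; values beyond the scale take the end colours), with genes in rows ordered by difference within each complex and arrays in columns. The column of cafeteria replicate 2 is red for most genes and that of standard replicate 1 is blue for most, except among the assembly factors.

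Markers of cell types in the tissue also differed between the arrays. Of 12 adipocyte markers, 11 were measured, with 9 higher in cafeteria samples and a median difference of 0.33. Their mean level was 11.71 and 11.92 in cafeteria samples, against 11.33, 11.51 and 11.53 in standard samples, so for this list the same arrays were at the top and the bottom as for the respiratory genes. The other lists ordered the arrays differently. The 9 endothelial markers measured were all lower in cafeteria samples, with a median of -0.43, as were the 10 macrophage markers at -0.29, the 9 lymphocyte markers measured at -0.46 and the 9 smooth muscle markers at -0.74. Of 7 fibroblast and progenitor markers 5 were higher, with a median of 0.11, and of 6 mesothelial markers measured 4 were higher, with a median of 0.07. The smooth muscle score was highest on standard replicate 3, at 1.37. Pancreatic acinar markers had a mean level of 4.50 and 4.40 in cafeteria samples, against 7.73, 4.28 and 4.30 in standard samples, so acinar transcripts stood out on standard replicate 1, the array on which the respiratory genes read lowest. The part of these cell type differences in the respiratory gene differences was not tested. Without standard replicate 1 the members' median difference was 0.10.

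**Figure D3:**
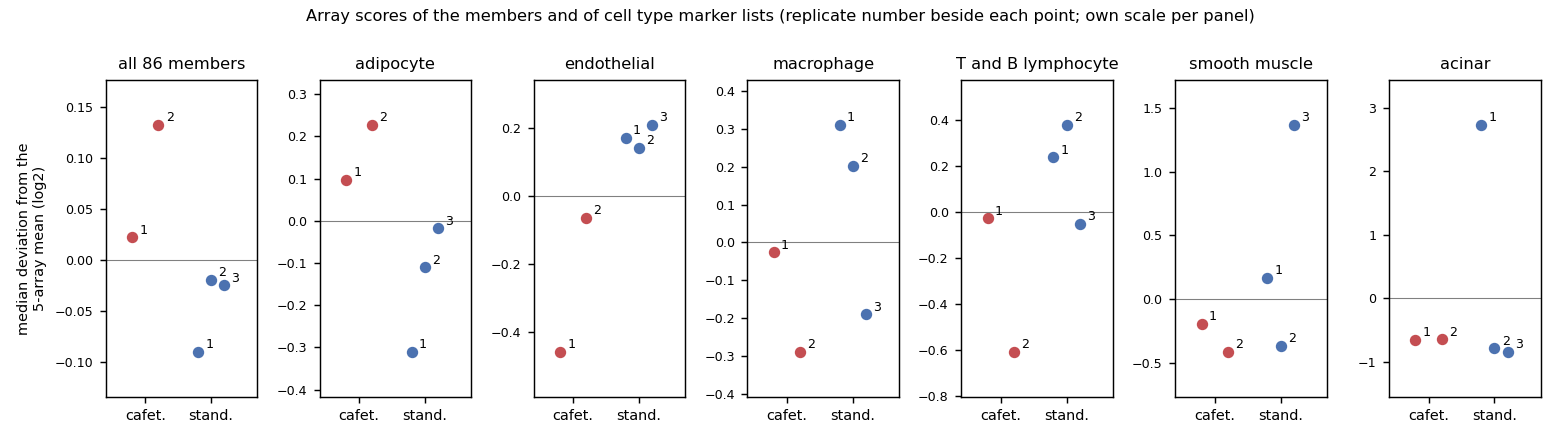
Median deviation from the 5-array mean (log2, vertical axis, own scale in each panel) of the 86 members and of 6 marker lists on each array, cafeteria left and standard right, with the replicate number beside each point. The members and the adipocyte markers share their highest array, cafeteria replicate 2, and their lowest, standard replicate 1.

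Complex I, the entry point for NADH and the largest group, had mostly higher means in cafeteria samples in both of its arms. Its 36 genes, with Ndufa4 and Ndufa4l2 counted by name, had a median difference of 0.13, with 33 higher in cafeteria samples. The diets did not overlap for 17, all higher (47.2%, against 13.3% of all probe sets and 24.3% of those above a mean of 10). At an unadjusted p under 0.05 there were 9 of the 36, all higher, against 6.05% of all probe sets. Of the 1002 other genes with a mean above 10, 130 were higher at that threshold. Without cafeteria replicate 1 the median was 0.21. Ndufb5, an accessory subunit of the membrane arm, had the smallest p of all members. It read 10.87 and 10.90 in cafeteria samples, against 10.60, 10.70 and 10.65 in standard samples, a difference of 0.23 ± 0.06 (SE; limma, adjusted p = 0.281). Its 95% interval ran from 0.08 to 0.38, and the cafeteria arrays agreed more closely with each other than the standard arrays did. Ndufa12, an accessory subunit of the matrix arm, read 10.37 and 10.53 in cafeteria samples, against 10.11, 10.22 and 10.07 in standard samples, a difference of 0.32 ± 0.08 (limma, adjusted p = 0.293). Ndufb6, of the membrane arm, read 10.41 and 10.60 in cafeteria samples, against 10.22, 10.18 and 10.23 in standard samples, a difference of 0.29 ± 0.08 (limma, adjusted p = 0.299). Ndufa7, of the matrix arm, read 10.58 and 10.74 in cafeteria samples, against 10.45, 10.49 and 10.43 in standard samples. For these subunits the diets did not overlap, and cafeteria replicate 2 was the highest array. The difference of Ndufa7 was 0.21 ± 0.07 (limma, adjusted p = 0.353), and a dim further probe set of the gene gave 0.58.

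The parts of complex I had nearly the same median difference but not the same overlap. The 6 core subunits of the matrix arm, which hold the flavin and the iron-sulfur clusters that carry electrons (Ndufs1, Ndufs3, Ndufs7, Ndufs8, Ndufv1 and Ndufv2), had a median of 0.12, and all 6 means were higher in cafeteria samples. None of the 6 separated the diets, and standard replicate 1 was the lowest array for all 6. The 9 accessory subunits of the matrix arm also had a median of 0.12, and 7 of them separated the diets. The 18 accessory subunits of the membrane arm had a median of 0.14, with 17 higher and 9 separating the diets. Of all probe sets, 13.3% separated the diets with cafeteria higher, and of those above a mean of 10, 24.3% did. This split into parts was drawn up with results of these data known, and it was not tested. The parts hold few genes, so these counts do not rank them.

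The exceptions in complex I were few. Ndufa9, an accessory subunit, differed by -0.05 ± 0.09 and Ndufb11 by -0.0036 ± 0.06, both with overlapping diets. Median centring of the arrays turned both signs, to 0.0065 and 0.05. Ndufa4 and Ndufa4l2 carry complex I names, although the Ndufa4 protein is now placed in complex IV. Ndufa4 read 12.03 and 12.12 in cafeteria samples, against 11.83, 11.97 and 11.97 in standard samples, without overlap. Its paralogue Ndufa4l2, a hypoxia-inducible gene, went the other way, at 5.73 and 6.03 in cafeteria samples, against 6.003, 6.003 and 6.27 in standard samples, a difference of -0.21 ± 0.14. Its diets overlapped, with cafeteria replicate 1 the lowest and standard replicate 3 the highest array.

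The Ndufaf assembly factors had a median difference of 0.09, and all 6 were higher in cafeteria samples, with 0 at an unadjusted p under 0.05. Without standard replicate 3 the median was 0.055. The median of the subunits lay above that of the assembly factors by 0.04. On the array scores, the diets differed by 0.14 for the subunits and by 0.08 for the assembly factors. The gap between these was less than the pooled standard deviation, between arrays of a diet, of the subunit score minus the assembly factor score, 0.09. The order turned with quantile normalization of the arrays, to -0.01, and without standard replicate 1, to -0.0098, so the subunits and the assembly factors could not be ranked. Ndufaf4 read 7.74 and 7.89 in cafeteria samples, against 7.79, 7.54 and 7.52 in standard samples, a difference of 0.20 ± 0.11 with overlap (limma, adjusted p = 0.500). Ndufaf3 read 8.46 and 8.45 in cafeteria samples, against 8.39, 8.37 and 8.22 in standard samples, a difference of 0.13 ± 0.07. Ndufaf7, a methyltransferase that modifies a core subunit, read 7.19 and 7.12 in cafeteria samples, against 7.09, 7.09 and 6.86 in standard samples, a difference of 0.14 ± 0.09. Both Ndufaf3 and Ndufaf7 separated the diets, by a narrow margin, and their lowest array was standard replicate 3. The other 3 factors, Ndufaf8, Ndufaf1 and Ndufaf5, differed by 0.05, 0.02 and 0.02. Standard replicate 1, the lowest array for 24 of the 36 complex I subunits, was the lowest for 0 of the 6 assembly factors.

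Complex II, which oxidises succinate in the citric acid cycle, had a median difference of 0.10 over its 4 genes, all higher in cafeteria samples. These values rested on cafeteria replicate 2. The array scores were -0.05 and 0.17 on cafeteria replicates 1 and 2, against -0.06, -0.02 and -0.04 on the standard arrays, so cafeteria replicate 1 lay among the standard arrays. Without cafeteria replicate 2 the median was -0.0096, and without cafeteria replicate 1 it was 0.21. Sdhc, a membrane anchor subunit, read 10.94 and 11.22 in cafeteria samples, against 10.67, 10.88 and 10.84 in standard samples, a difference of 0.28 ± 0.12 (limma, adjusted p = 0.440). It was the only complex II gene whose diets did not overlap. The other anchor, Sdhd, read 10.86 and 11.15 in cafeteria samples, against 10.88, 10.92 and 10.92 in standard samples, a difference of 0.10 ± 0.10 that was -0.05 without cafeteria replicate 2. The iron-sulfur subunit Sdhb differed by 0.11 ± 0.07. The flavoprotein Sdha, the catalytic subunit, read 11.23 and 11.48 in cafeteria samples, against 11.34, 11.35 and 11.36 in standard samples, a difference of 0.0089 ± 0.09. Its standard arrays were nearly equal, with a cafeteria array on either side of them, and the sign turned with quantile normalization, to -0.04, and with cyclic loess, to -0.01.

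Complex III, which passes electrons from coenzyme Q to cytochrome c, had a median difference of 0.15, with all 7 genes higher in cafeteria samples. Of them, 3 separated the diets (42.9%, against 13.3% of all probe sets and 24.3% of those above a mean of 10). At an unadjusted p under 0.05 there was 1 of the 7, against 6.05% of all probe sets higher. The median was 0.23 without cafeteria replicate 1 and 0.098 without standard replicate 1. Uqcr11, a small accessory subunit, had the largest difference of all 86 members. It read 11.28 and 11.45 in cafeteria samples, against 10.78, 11.06 and 11.13 in standard samples. The difference was 0.38 ± 0.13, a 1.30-fold higher level (limma, adjusted p = 0.364). Both cafeteria arrays were above all standard arrays, of which replicate 1 was far below the other two. Uqcrq, another small subunit, read 10.99 and 11.09 in cafeteria samples, against 10.80, 10.93 and 10.96 in standard samples, a difference of 0.15 ± 0.07. Uqcrc1, a core protein, differed by 0.19 ± 0.11, and the Rieske iron-sulfur protein gene Uqcrfs1 by 0.13 ± 0.08, both with overlap. Cytochrome c1 (Cyc1), a catalytic subunit of this complex whose symbol lies outside the naming rule, read 10.90 and 11.12 in cafeteria samples, against 10.77, 10.93 and 10.86 in standard samples, a difference of 0.16 ± 0.09 (limma, adjusted p = 0.504).

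**Figure D4:**
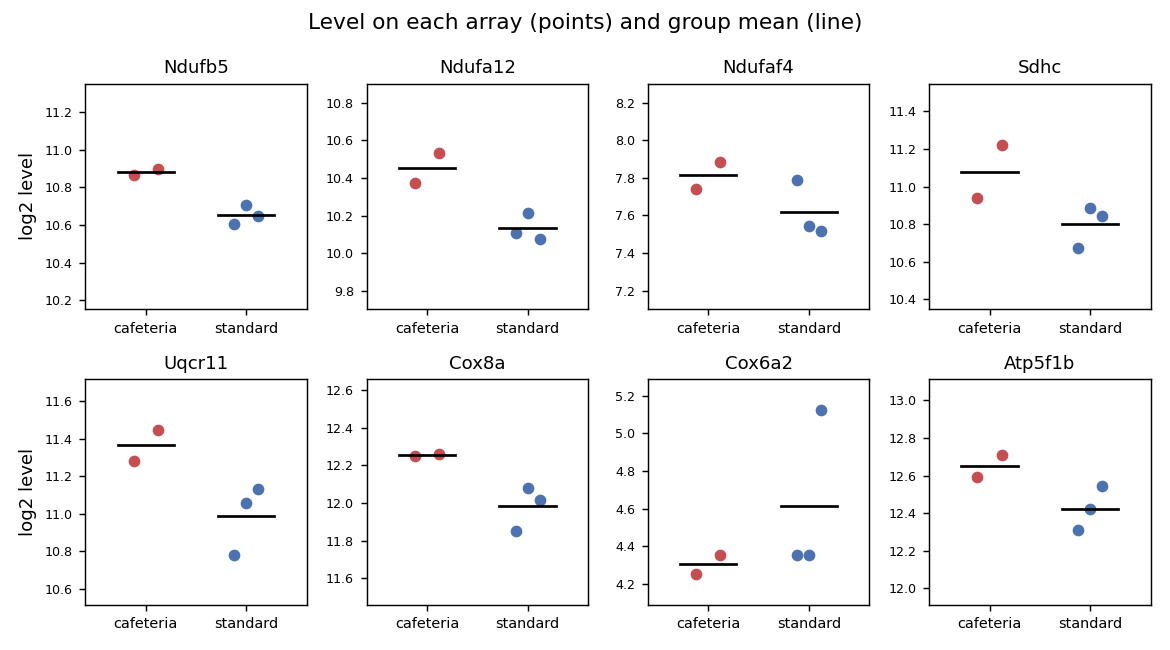
Log2 level on each array (points) with the group mean (line) for 8 members, cafeteria left and standard right, each panel on its own level axis. Ndufb5, Ndufa12, Sdhc, Uqcr11, Cox8a and Atp5f1b show no overlap between the diets; Ndufaf4 and Cox6a2 overlap, and 1 standard array stands above the rest in Cox6a2.

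Complex IV, cytochrome c oxidase, had a median difference of 0.08, with 13 of 17 genes higher in cafeteria samples. Of them, 5 separated the diets (29.4%, against 13.3% of all probe sets). That share was near the 24.3% of probe sets above a mean of 10. At an unadjusted p under 0.05 there were 3 of the 15 tested, against 6.05% of all probe sets higher. Of the 1002 other genes with a mean above 10, 130 were higher at that threshold. Leaving out cafeteria replicate 1 gave 0.12, and leaving out cafeteria replicate 2 gave 0.03. Of the 17 genes, 9 are subunits or isoforms made in most tissues and 6 are isoforms bound to certain tissues or conditions. The other two are Cox7a2l, described with the isoforms, and Cox6c-ps1, a Cox6c pseudogene by its symbol. Cox6c-ps1 was dim, at 4.71 and 4.67 in cafeteria samples, against 4.61, 4.65 and 4.65 in standard samples, and counts among the members that separated the diets. The 9 common genes were all higher, with a median of 0.13 and 4 separating the diets. Cox6a1 read 11.28 and 11.35 in cafeteria samples, against 11.03, 11.14 and 11.07 in standard samples, a difference of 0.23 ± 0.06 (limma, adjusted p = 0.301). Cox8a read 12.25 and 12.26 in cafeteria samples, against 11.85, 12.08 and 12.02 in standard samples, a difference of 0.27 ± 0.08 (limma, adjusted p = 0.336). Cox6c read 12.20 and 12.17 in cafeteria samples, against 12.06, 12.02 and 12.08 in standard samples, a difference of 0.13 ± 0.05 (limma, adjusted p = 0.394). The diets did not overlap for these 3 genes, and for Cox8a and Cox6c the cafeteria arrays nearly coincided. Cox6b1 also separated the diets, by 0.08 ± 0.06, while Cox4i1 differed by 0.13 ± 0.10 and Cox7b by 0.04 ± 0.06 with overlap.

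The tissue or condition isoforms of complex IV did not follow the common ones, but all except Cox6b2 were dim, where a difference can hardly be read. Their median over 6 genes was 0.01, with 3 higher in cafeteria samples and 0 separating the diets. Cox6a2, the heart and skeletal muscle partner of Cox6a1, read 4.25 and 4.36 in cafeteria samples, against 4.36, 4.36 and 5.12 in standard samples, a difference of -0.31 ± 0.28. All arrays but standard replicate 3 lay near the filter level of 4.28, and that array also had the highest mean level of 16 striated muscle markers, 5.22, against 4.57 to 4.82 on the other 4 arrays. Only 5 of these markers passed the filter, and their list had a median deviation of just 0.03 on that array. A link with the Cox6a2 value was not tested. Cox7a1, the muscle and brown fat isoform, read 4.58 and 4.73 in cafeteria samples, against 4.58 on each standard array. Cox8b, another muscle and brown fat isoform in rodents, was below the filter at 3.61 in both cafeteria samples, against 3.65, 3.61 and 3.59 in standard samples, as was the testis isoform Cox7b2 at 3.28 in both, against 3.25, 3.22 and 3.28. These genes were at or near the dim end of the arrays in both diets. Cox4i2, the isoform induced by low oxygen, differed by -0.04 ± 0.15. Cox6b2, a testis isoform, read 7.96 and 6.98 in cafeteria samples, against 7.32, 7.39 and 7.13 in standard samples, so the cafeteria arrays lay on either side of all standard arrays and the difference of 0.19 turned to -0.30 without cafeteria replicate 1. Cox7a2l, a factor that joins complexes III and IV in supercomplexes, was lower in cafeteria replicate 2, at 10.9997 and 10.82 in cafeteria samples, against 10.9997, 10.9997 and 11.05 in standard samples, a difference of -0.11 ± 0.07.

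Complex V, which makes ATP, had a median difference of 0.12, with 15 of 16 genes higher in cafeteria samples. Of them, 7 separated the diets (43.8%, against 13.3% of all probe sets and 24.3% of those above a mean of 10). At an unadjusted p under 0.05 there was 1, Atp5mf, a share near the 6.05% of all probe sets higher. Without cafeteria replicate 2 the median of all 16 was 0.05. Over all arrays the median was 0.13 in the catalytic head and central stalk (5 genes), 0.15 in the peripheral stalk (4 genes) and 0.14 in the membrane part (6 genes), with every gene of these 3 parts higher. The catalytic beta subunit Atp5f1b read 12.59 and 12.71 in cafeteria samples, against 12.31, 12.42 and 12.54 in standard samples, a difference of 0.23 ± 0.09 (limma, adjusted p = 0.413). Atp5mf, a membrane subunit, read 11.50 in both cafeteria samples, against 11.28, 11.37 and 11.35 in standard samples, a difference of 0.16 ± 0.05 (limma, adjusted p = 0.352). Neither gene overlapped between the diets. Atp5mk differed by 0.18 ± 0.08 and Atp5mpl by 0.16 ± 0.07, both membrane subunits that separated the diets, and the peripheral stalk gene Atp5po by 0.17 ± 0.11 with overlap. The exception was Atp5if1, the inhibitor that blocks the enzyme when it runs in reverse. It read 8.75 and 8.61 in cafeteria samples, against 8.95, 8.72 and 8.70 in standard samples, a difference of -0.10 ± 0.11 with overlap, and it was the only member of complex V whose mean was lower in cafeteria samples.

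Other genes of the pathway, on lists drawn up outside the naming rule, were more often higher than lower in cafeteria samples where they serve electron transport or assembly. Of 13 electron carrier genes measured, Cyc1 among them, 10 were higher in cafeteria samples, with a median of 0.16. At an unadjusted p under 0.05 there was 1 (7.69%, against 6.05% of all probe sets higher), a share near the background. It was Etfb, a subunit of the flavoprotein that takes electrons from fatty acid oxidation, at 10.78 and 10.96 in cafeteria samples, against 10.43, 10.66 and 10.64 in standard samples (difference 0.29; limma, adjusted p = 0.385). Its partner Etfdh, which hands those electrons to coenzyme Q, differed by 0.29, and Coq5, an enzyme of coenzyme Q synthesis, by 0.37, both without overlap. The largest difference of the list had the other sign, -0.42 for Coq8a, a protein needed for coenzyme Q synthesis, with overlap; it was named after its value was seen. Of 39 assembly genes outside the Ndufaf name, 28 were higher, with a median of 0.09. At an unadjusted p under 0.05 there were 7 higher (18.9% of the 37 tested, against 6.05% of all probe sets) and 1 lower (2.70%, against 6.62%). Sdhaf1, an assembly factor of complex II, read 9.86 and 9.92 in cafeteria samples, against 9.58, 9.66 and 9.68 in standard samples, a difference of 0.25 (limma, adjusted p = 0.280). Sdhaf4, of the same complex, differed by 0.41, and Coa5, of complex IV, by 0.25. Each of these 3 assembly genes separated the diets. Acad9, an assembly factor of complex I, lay furthest the other way, at -0.40 with overlap, and was named after its value was seen. A list of 8 genes of nucleotide, phosphate and phosphocreatine exchange had all means higher, with a median of 0.10, but its mitochondrial creatine kinases Ckmt1 and Ckmt2 were below the filter. Of the other 6, channels and carriers, 0 were at an unadjusted p under 0.05. Only Vdac1 separated the diets (12.5% of the list, against 13.3% of all probe sets). Vdac1, the pore of the outer membrane, differed by 0.25, Slc25a5, an ADP/ATP carrier, by 0.12, and Slc25a3, the phosphate carrier, by 0.12. Slc25a4, Vdac3 and Vdac2 differed by 0.09, 0.05 and 0.02.

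Regulators of these genes did not lie on one side. Of 20 regulators, 9 were higher and 11 lower in cafeteria samples, with a median of -0.01. Ppargc1a, the coactivator best known for driving mitochondrial gene expression, read 5.38 and 5.10 in cafeteria samples, against 5.42, 5.32 and 5.97 in standard samples, a difference of -0.33 with overlap. Its relative Ppargc1b differed by 0.33, the nuclear receptor Esrra by 0.18 and Mterf1, a mitochondrial transcription terminator, by -0.14, each without overlap and at an unadjusted p under 0.05 (limma, adjusted p = 0.388, 0.380 and 0.370). At that threshold there were 2 regulators higher (10%, against 6.05% of all probe sets) and 1 lower (5%, against 6.62%), shares near the background. Both cafeteria arrays lay above all standard arrays for 4 regulators (20%, against 13.3% of all probe sets) and below them for 3. Tfam, which packages and transcribes mitochondrial DNA, differed by -0.02. Ucp1, the uncoupling protein that defines brown-type fat, was below the filter, at 3.61 in both cafeteria samples, against 3.61, 3.72 and 3.61 in standard samples. Of 10 thermogenic and uncoupling genes measured, 4 were higher and 6 lower in cafeteria samples, with a median of -0.01. At an unadjusted p under 0.05 there were 0. Of the 10 genes, 5 were below the filter, Ucp1 among them. The 5 that passed it were the 4 higher ones and Ppargc1a, which was lower. Cidea, a lipid droplet protein, differed by 0.30, and Ucp3, an uncoupling protein relative found mainly in muscle, differed by 0.32 (limma, adjusted p = 0.402).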

How the data were processed

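RNA of 5 samples was measured, 2 cafeteria and 3 standard, 1 array each. The deposited values are log2 expression levels, 1 for each of 31099 probe sets, made by the authors with RMA and the affy package, per the submitters' processing notes, without versions. RMA makes the distributions of the arrays alike, which can hide a shift common to most genes. No label gives array batches, and no depth applies; the number of arrays limits the precision. The diet named in each label set its group, and nothing states that same-numbered samples share a source; p-values measure the spread between these samples.

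After 57 control probe sets were left out, probe sets with a mean above the 30th percentile (a log2 level of 4.28) were kept, 21729 in all, covering 11509 genes with 1 symbol. The difference, cafeteria minus standard, was tested two-sided in R 4.3.3 with limma 3.58.1 (lmFit, then eBayes) and adjusted by Benjamini-Hochberg over all probe sets; the procedure was tested on simulated data. Standard errors and intervals are those of this fit. Medians of complexes are over all their members, with no test. Symbols came from GEO's platform annotation, and promoter windows from RefSeq (GRCr8). Figures used matplotlib 3.10.9 in Python 3.11.15. The members and lists were chosen with earlier results of these data known. Members given with values were, in each complex, the 4 with the smallest p, all of complex II and of the Ndufaf genes, those with a sign opposite to their complex, both the common and the tissue members of the isoform families of complex IV with Ndufa4 and Ndufa4l2, and genes whose probe sets disagree in sign, 41 in all; from each other list, up to 3 with the smallest p and Cyc1, Ppargc1a, Tfam and Ucp1. Cell type lists are given by counts. Alternatives were other filters, normalizations, probe set choices and variance models, the replicate number as a block, and each array left out in turn.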

Additional observations from a re-analysis of the deposited data

How the results depend on the processing

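Under every alternative in which probe sets were tested, 0 passed an adjusted p of 0.05, and the smallest adjusted p of any named member was 0.156 (limma). Of 41 named members, 30 kept their sign under every alternative, Ndufaf1 (without standard replicate 3) and Cox7a1 (without cafeteria replicate 2) came to exactly 0, and 9 turned. The median of complex IV, 0.08 over all its genes, was 0.13 with a filter at the 50th percentile, 0.045 with quantile normalization and 0.13 with median centring; that of the assembly factors was 0.15 with median centring. Complex I minus assembly factors was -0.014 with quantile normalization. Members at an unadjusted p under 0.05, 14 in all, numbered 6 with quantile normalization, 8 with cyclic loess, 26 with median centring and 6 with array weights. Members separating the diets numbered 62 with median centring, which moved the median of all genes to 0.05. Shares over all probe sets are not given for these settings, so none of these counts can be read as an excess of members. With the replicate number as a block, 5 members and 2206 probe sets were at an unadjusted p under 0.05; deviations of same-numbered samples correlated at 0.07 and -0.03, so the numbers were not taken as pairs. Single genes turned in sign with quantile normalization (Sdha, -0.037), with cyclic loess (Sdha, -0.013), with median centring (Ndufa9 0.0065, Ndufb11 0.051, Cox4i2 0.012 and Cox8b 0.047) and with the mean of all probe sets of a gene (Ndufa9, 0.055).

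Leaving out 1 array at a time gave medians of 0.088 to 0.21 for complex I, 0.055 to 0.11 for the assembly factors, -0.0096 to 0.21 for complex II, 0.098 to 0.23 for complex III, 0.031 to 0.12 for complex IV and 0.053 to 0.17 for complex V, each lowest without cafeteria replicate 2 and highest without cafeteria replicate 1 except that complex III was lowest without standard replicate 1, and the assembly factors were lowest without standard replicate 3 and highest without standard replicate 2. Complex I minus assembly factors ran from -0.0098 to 0.10. Members at an unadjusted p under 0.05 numbered 6 to 31, members separating the diets 37 to 72, and probe sets at that threshold 1986 to 4174, the highest of each without cafeteria replicate 1. The signs of 9 genes turned: Sdha ran from -0.12 to 0.14, Sdhd from -0.047 to 0.24, Ndufaf8 from -0.0059 to 0.11, Ndufa9 from -0.17 to 0.069, Ndufb11 from -0.042 to 0.021, Cox4i2 from -0.26 to 0.17, Cox6b2 from -0.30 to 0.67, Cox7b from -0.022 to 0.099 and Cox8b from -0.019 to 0.0081. The causes were not tested.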

Other observations

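Probe sets listed under the symbols COX1 and COX2 lie outside the naming rule. By these symbols alone they would read subunits of complex IV encoded by mitochondrial DNA, but their gene identifiers did not match the RefSeq table used here. COX1 read 13.92 and 13.95 in cafeteria samples, against 13.85, 13.96 and 14.02 in standard samples, and COX2 read 13.91 and 13.94 in cafeteria samples, against 13.88, 13.94 and 13.997 in standard samples. The difference was -0.01 for each, with overlapping diets (limma, adjusted p = 0.954 and 0.936), and standard replicate 1 was the lowest array for both.

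A further probe set was present for 9 member genes, 10 in all, of which 7 passed the filter. For Atp5po and Ndufa9 the sign was opposite to that of the brighter probe set, at -0.04 and 0.16, and both of these probe sets were dim. Identical values on some arrays occurred in 29 members, or 33.7%, against 46.7% of all probe sets tested, and in 4 members the cafeteria arrays had the same value (Ndufs7, Ndufaf1, Cox7b2 and Cox8b).

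Among complex II assembly genes, Sdhaf3 also differed by 0.39 (limma, adjusted p = 0.336), while Surf1, an assembly factor of complex IV, was the 1 assembly gene lower at an unadjusted p under 0.05, at 8.66 and 8.76 in cafeteria samples, against 8.89, 8.86 and 8.86 in standard samples. These genes were named after their values were seen.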
